A study of Mus musculus with 12 samples.

Results

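This account follows 9 genes of embryonic red cells and platelets through dissected mouse embryonic hearts: Hba-x, Hbb-y, Hbb-bh1, Slc4a1, Gata1, Klf1, Alas2, Epor and Pf4. They were taken by symbol, as known genes of blood and not by a cutoff on a measured value, but with earlier results of these data known. All 9 were found among the 19938 genes measured, each with a probe set of its own. The hearts were taken at embryonic stage E8.75 from wild-type (WT) embryos, from embryos knocked out for Nkx2-5 (Nkx2-5 KO), from embryos knocked out for Tbx5 (Tbx5 KO) and from embryos knocked out for both (double KO). Each of the 4 genotypes had 3 arrays, which the labels call biological replicates. The labels state neither the alleles, the strain, how many hearts went into an array, nor whether the hearts were rinsed of blood. RNA was amplified before labelling, and each value below is a deposited log2 expression level, on which a difference of 1 is a doubling of signal.

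A midgestation heart is filled with blood, so a dissected heart carries the RNA of the blood cells in and around its chambers along with that of its muscle. At this stage circulating red cells are primitive erythroid cells, which form in the blood islands of the yolk sac. These cells still hold their nuclei at this stage and make embryonic globins: Hba-x encodes zeta globin, and Hbb-y and Hbb-bh1 encode the embryonic beta-like chains. Gata1 and Klf1 are the transcription factors that drive globin, heme and membrane genes in these cells, through GATA and CACCC letters in their promoters and enhancers, and Gata1 also acts in megakaryocytes, the cells that make platelets. In a bulk sample fewer cells of a type and less RNA per cell cannot be told apart.

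To show what the letters of these genes look like, the 250 bases before the start site are printed for 3 red cell genes and for Pf4, from RefSeq on GRCm38.p6. Capitals mark GATA letters (AGATAA or its variant TGATAA, and the same ending in G instead, AGATAG as well as TGATAG) and CACCC letters, on either strand, so that their reverse complements are capitalised too.
Hba-x: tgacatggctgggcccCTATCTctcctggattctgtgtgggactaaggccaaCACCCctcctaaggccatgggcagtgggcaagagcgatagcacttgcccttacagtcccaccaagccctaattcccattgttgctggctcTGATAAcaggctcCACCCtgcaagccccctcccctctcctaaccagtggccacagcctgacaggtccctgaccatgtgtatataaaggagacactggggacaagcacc
Hbb-y: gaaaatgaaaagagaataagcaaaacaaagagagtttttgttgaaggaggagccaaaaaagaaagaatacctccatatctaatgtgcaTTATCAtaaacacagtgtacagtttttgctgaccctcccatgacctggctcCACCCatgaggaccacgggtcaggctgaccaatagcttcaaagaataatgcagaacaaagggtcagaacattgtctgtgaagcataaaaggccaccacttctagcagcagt
Alas2: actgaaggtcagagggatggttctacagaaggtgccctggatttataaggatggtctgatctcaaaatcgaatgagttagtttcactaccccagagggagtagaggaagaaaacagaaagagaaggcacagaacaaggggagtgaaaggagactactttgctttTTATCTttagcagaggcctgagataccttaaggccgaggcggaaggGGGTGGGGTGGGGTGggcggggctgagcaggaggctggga
Pf4: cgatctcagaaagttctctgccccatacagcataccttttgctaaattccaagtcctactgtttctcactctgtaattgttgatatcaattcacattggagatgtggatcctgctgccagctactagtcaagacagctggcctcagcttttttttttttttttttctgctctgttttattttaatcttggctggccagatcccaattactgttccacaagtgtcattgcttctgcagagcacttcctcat
The Hba-x stretch is chr11:32276350-32276599 on the plus strand and holds GATA letters 108 and 234 bases before the start and CACCC letters 95 and 198 bases before it. The Hbb-y stretch is chr7:103853208-103853457 on the minus strand, with GATA letters at 162 bases and CACCC at 111 bases before the start. The Alas2 stretch is chrX:150547167-150547416 on the plus strand, with GATA letters at 86 bases and a run of 3 CACCC matches on the reverse strand at 40, 35 and 30 bases. The Pf4 stretch, chr5:90772185-90772434 on the plus strand, holds 0 matches of either kind. Of the 7 members with an entry, 5 held GATA letters, 6 held CACCC letters and 5 held both. Among all 32851 entries 26.5% held GATA letters, 52.0% held CACCC and 11.8% held both. A match is a run of letters and was not tested for binding.

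The tissue label was borne out by heart muscle transcripts on every array. Tnnt2 (cardiac troponin T) lay between 13.98 and 14.30, Actc1 (cardiac actin) between 14.08 and 14.16 and Myl7 (atrial myosin light chain) between 13.82 and 13.93. The signal of Xist, made from the inactive X chromosome, was 11.46 to 12.32 in WT and Tbx5 KO arrays and 6.44 to 8.16 in Nkx2-5 KO and double KO arrays, and the Y-linked Eif2s3y and Uty ran the other way. X- and Y-linked signal thus split the arrays in the same way as the Nkx2-5 genotype. In comparisons of WT or Tbx5 KO with Nkx2-5 KO or double KO, its part cannot be told apart from that of genotype. This holds for every gene, Gata1 and Alas2 on the X chromosome included, and was not tested. The probe sets of the targeted genes do not check the genotypes, because the removed part of each gene is not stated in the sources used here. Nkx2-5 read 9.33 to 9.36 in WT, 8.72 to 9.13 in Nkx2-5 KO, 9.31 to 9.38 in Tbx5 KO and 8.97 to 9.21 with both genes knocked out. Tbx5 read 9.90 to 10.15 in WT, 10.15 to 10.53 in Nkx2-5 KO, 10.42 to 10.73 in Tbx5 KO and 10.31 to 10.83 with both knocked out.

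Some arrays stood apart for blood genes, and this bears on every comparison that follows. The array WT replicate 2 was the lowest of its group for 8 of the 8 red cell members, and Nkx2-5 KO replicate 2 was the lowest of its group for 7 of 8. The mean of the 8 red cell members was 11.41, 9.88 and 11.18 on the WT arrays, 10.83, 10.03 and 10.89 on the Nkx2-5 KO arrays, 10.30, 10.26 and 10.28 on the Tbx5 KO arrays, with 9.67, 9.30 and 9.98 for the double KO. WT replicate 2 thus lay below all 3 Tbx5 KO arrays.

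**Figure D1:**
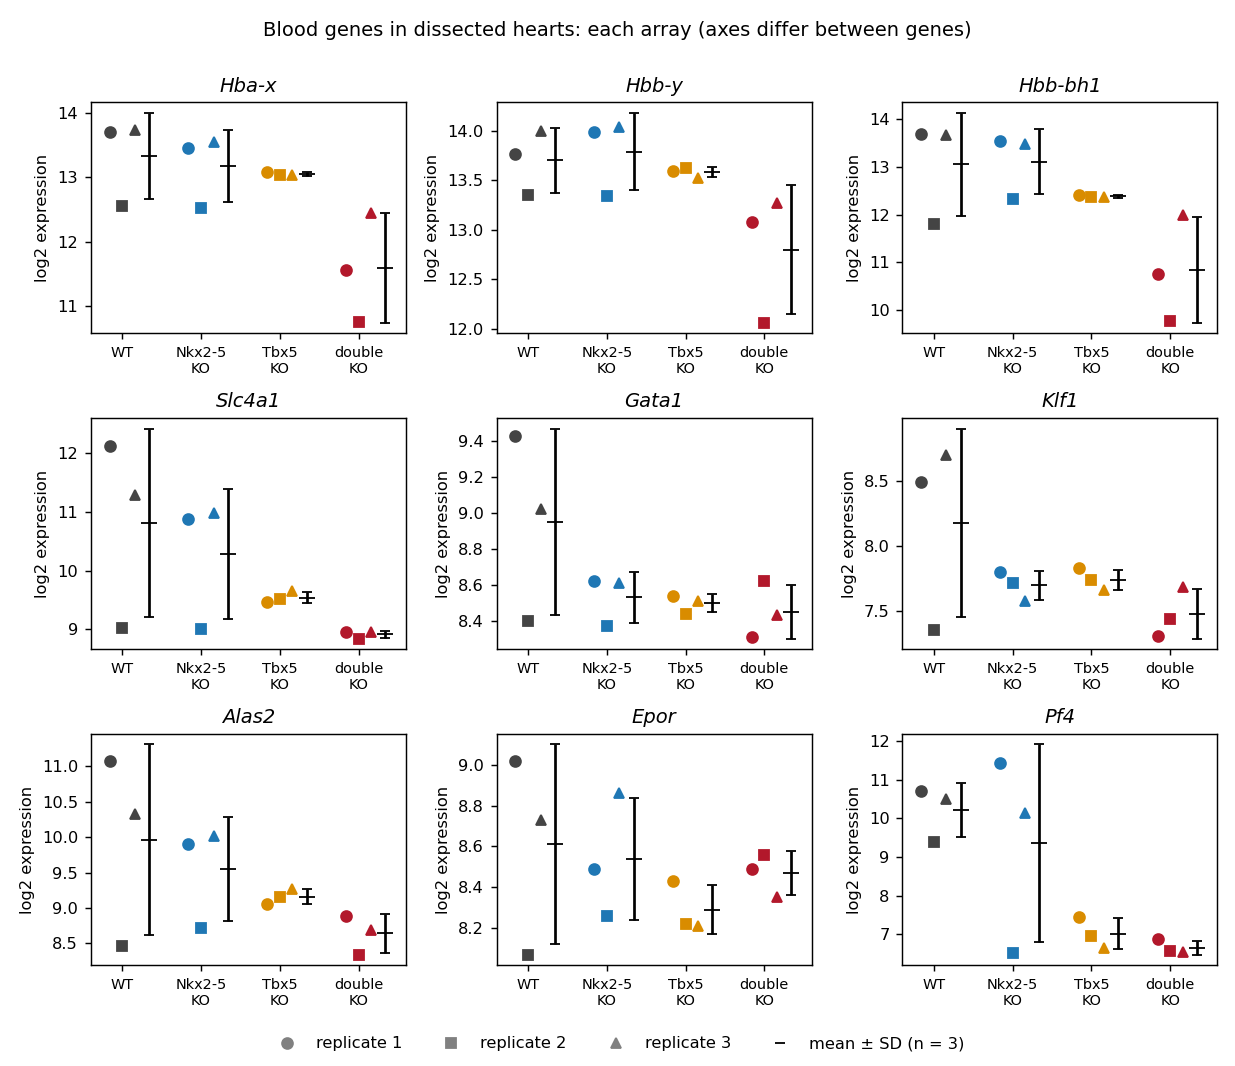
Deposited log2 level of each of the 9 genes on every array, with 1 panel per gene, 1 colour per genotype and 1 symbol per replicate number; bars beside the points are the mean ± SD (n = 3). For Hba-x the Tbx5 KO arrays lie within 13.03 to 13.08 and the WT arrays between 12.56 and 13.74, and the double KO holds the lowest group mean for 8 of the 9 genes, all but Epor.

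The 3 embryonic globins were lower in double KO hearts than in WT hearts and limma called 0 of the 3 in either single knockout. Hba-x, the zeta chain that pairs with the embryonic beta-like chains, read 13.71, 12.56 and 13.74 in WT, 13.46, 12.53 and 13.55 in Nkx2-5 KO, 13.08, 13.03 and 13.03 in Tbx5 KO, with 11.56, 10.75 and 12.45 in the double KO. Every double KO array was below every array of the other genotypes, and the closest were double KO replicate 3 at 12.45 and Nkx2-5 KO replicate 2 at 12.53. Hba-x fell by 1.75 in the double KO against WT on the log2 scale (SE 0.40, 3.35-fold, adjusted p = 0.0078, limma), by 1.59 against Nkx2-5 KO (SE 0.40, adjusted p = 0.0392) and by 1.46 against Tbx5 KO (SE 0.40, adjusted p = 0.0369). The differences of the single knockouts from WT were -0.15 (SE 0.40) and -0.29 (SE 0.40), for Nkx2-5 KO and Tbx5 KO, and the first was 0.17 without Nkx2-5 KO replicate 2 (adjusted p = 0.887).

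Hbb-y, the epsilon-y chain, was the steadiest of the globins between arrays. It read 13.76, 13.35 and 14.00 in WT, 13.99, 13.34 and 14.04 in Nkx2-5 KO, 13.59, 13.62 and 13.52 in Tbx5 KO, with 13.08, 12.06 and 13.27 in the double KO. The double KO arrays again lay below all others, by a narrow margin. Hbb-y fell by 0.90 against WT (SE 0.28, 1.86-fold, adjusted p = 0.0349), and its differences from Nkx2-5 KO and Tbx5 KO were -0.99 (adjusted p = 0.0591) and -0.77 (adjusted p = 0.103).

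Hbb-bh1, the beta-h1 chain, is the main beta-like globin of the earliest primitive red cells. It read 13.69, 11.81 and 13.66 in WT, 13.54, 12.33 and 13.47 in Nkx2-5 KO, 12.42, 12.36 and 12.36 in Tbx5 KO, with 10.75, 9.78 and 12 in the double KO. WT and double KO overlapped here, since WT replicate 2 lay below double KO replicate 3, while the double KO lay below both single knockouts. Hbb-bh1 fell by 2.21 against WT (SE 0.56, 4.63-fold, adjusted p = 0.0121) and by 2.27 against Nkx2-5 KO (SE 0.56, adjusted p = 0.0339), and its difference from Tbx5 KO was -1.54 (SE 0.56, adjusted p = 0.104).

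The globin calls against WT depended on single arrays to different degrees. Hba-x stayed called without any 1 of the 12 arrays. Hbb-y lost its call without WT replicate 1 (adjusted p = 0.0895), WT replicate 3 (0.114) or double KO replicate 2 (-0.53, adjusted p = 0.127), and Hbb-bh1 lost it without the same arrays (adjusted p = 0.0536, 0.0512 and 0.0591). Without WT replicate 2 the differences were -2.13 for Hba-x, -1.07 for Hbb-y and -2.83 for Hbb-bh1, all called. Without double KO replicate 2, none of the globins was called against a single knockout (Hba-x -1.18 against Nkx2-5 KO, adjusted p = 0.15, and -1.04 against Tbx5 KO, adjusted p = 0.151). The Hba-x call against Nkx2-5 KO was also lost without either of Nkx2-5 KO replicates 1 and 3 (adjusted p = 0.137 and 0.0993), any 1 Tbx5 KO array (0.0577, 0.0512 and 0.0528) or double KO replicate 1 (0.0818). That of Hbb-bh1 was lost without Nkx2-5 KO replicate 1 or 3 (0.125 and 0.0853), Tbx5 KO replicate 1 (0.0508), or either of double KO replicates 1 and 2 (0.0759 and 0.135). The Hba-x call against Tbx5 KO was lost without any 1 Tbx5 KO array (0.0971, 0.0805 and 0.0901) or double KO replicate 1 (0.0827). The highest value anywhere on the arrays was 14.7, so the globins sat near the top of the scale. The beta-like genes are close copies of each other, and how far their probe sets read each other's RNA was not tested.

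Slc4a1, band 3, is the anion exchanger that anchors the red cell membrane to its skeleton, and it showed the widest spread between arrays of one genotype among the red cell members. It read 12.12, 9.02 and 11.29 in WT, 10.87, 9.0 and 10.98 in Nkx2-5 KO, 9.46, 9.52 and 9.65 in Tbx5 KO, with 8.96, 8.84 and 8.95 in the double KO. All double KO arrays lay below all others, with WT replicate 2 and Nkx2-5 KO replicate 2 just above them. Whether the values on these arrays stood above background was not tested. Slc4a1 fell by 1.89 against WT (SE 0.64, 3.71-fold, adjusted p = 0.0499), at the very edge of the threshold. This call was lost without any 1 array other than WT replicate 2 and Nkx2-5 KO replicate 2, with adjusted p between 0.0538 and 0.189 for the other 10, and it was stronger without WT replicate 2 (-2.79, adjusted p = 0.00156). Its difference between Tbx5 KO and WT was -1.27 (SE 0.64, adjusted p = 0.39), and -2.16 without WT replicate 2 (adjusted p = 0.0341).

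Alas2 is the red cell form of the enzyme that starts heme synthesis, and its gene lies on the X chromosome. It read 11.08, 8.46 and 10.33 in WT, 9.91, 8.71 and 10.02 in Nkx2-5 KO, 9.05, 9.15 and 9.27 in Tbx5 KO, with 8.89, 8.34 and 8.69 in the double KO. WT replicate 2 fell inside the double KO range, so WT and double KO overlapped. The difference from WT was -1.32 in the double KO (SE 0.51, adjusted p = 0.0837), -0.80 in Tbx5 KO (SE 0.51, adjusted p = 0.534) and -0.41 in Nkx2-5 KO (SE 0.51, adjusted p = 0.791). Without WT replicate 2 the first of these was -2.06 (adjusted p = 0.00159), that of Tbx5 KO -1.55 (adjusted p = 0.0394) and that of Nkx2-5 KO -1.16 (adjusted p = 0.0834). Without Nkx2-5 KO replicate 2 the Nkx2-5 KO difference was 0.01 (adjusted p = 0.996).

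The erythroid regulators Gata1 and Klf1 were highest on 2 of the 3 WT arrays. Gata1, on the X chromosome like Alas2, read 9.43, 8.40 and 9.02 in WT, 8.62, 8.37 and 8.61 in Nkx2-5 KO, 8.54, 8.44 and 8.51 in Tbx5 KO, with 8.31, 8.62 and 8.43 in the double KO. Klf1 read 8.49, 7.36 and 8.70 in WT, 7.80, 7.72 and 7.58 in Nkx2-5 KO, 7.83, 7.74 and 7.66 in Tbx5 KO, with 7.31, 7.44 and 7.69 in the double KO. For both genes WT replicates 1 and 3 were the 2 highest of all 12 arrays, while WT replicate 2 lay among or below the knockouts. All Klf1 values in the knockouts, 7.31 to 7.83, lay below the array medians of 8.05 to 8.25. Whether they stood above background was not tested.

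Neither regulator was called against WT. The double KO difference was -0.50 (SE 0.20, adjusted p = 0.0854) for Gata1 and -0.70 (SE 0.26, adjusted p = 0.0682) for Klf1. Without WT replicate 2 both were called in all 3 knockouts: Gata1 at -0.69, -0.73 and -0.77 (adjusted p = 0.0194, 0.0224 and 0.00265) and Klf1 at -0.89, -0.85 and -1.11 (adjusted p = 0.00481, 0.00795 and 0.000225), for Nkx2-5 KO, Tbx5 KO and double KO. These calls rest on leaving out 1 array of 3, and WT then has 2 arrays.

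Epor, the receptor through which erythropoietin keeps red cell precursors alive, had the smallest double KO difference of the 9. It read 9.02, 8.07 and 8.73 in WT, 8.49, 8.26 and 8.86 in Nkx2-5 KO, 8.43, 8.22 and 8.21 in Tbx5 KO, with 8.49, 8.56 and 8.35 in the double KO. All groups overlapped WT, and the double KO difference was -0.14 (95% interval -0.59 to 0.31, adjusted p = 0.659).

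Pf4, the chemokine stored in platelet granules and made by megakaryocytes, had the widest range of the 9. It read 10.72, 9.40 and 10.50 in WT, 11.44, 6.51 and 10.13 in Nkx2-5 KO, 7.45, 6.96 and 6.66 in Tbx5 KO, with 6.87, 6.57 and 6.54 in the double KO. All WT arrays lay above all Tbx5 KO and double KO arrays, WT replicate 2 included, whereas Nkx2-5 KO held both the highest and the lowest Pf4 value of the 12 arrays. Pf4 fell by 3.55 in the double KO against WT (SE 0.88, 11.7-fold, adjusted p = 0.0112), and the call held without any 1 of the 12 arrays. Its Tbx5 KO and double KO values lay below the array medians of 8.05 to 8.25. Whether they stood above background was not tested.

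The Tbx5 KO difference for Pf4 was nearly as large, -3.19 (SE 0.88, 95% interval -5.09 to -1.28), but it was not called (adjusted p = 0.0876). All groups share 1 estimate of the spread in this test, the spread of the Nkx2-5 KO arrays included. Without Nkx2-5 KO replicate 2 the SE was 0.37 and Pf4 was called (adjusted p = 0.00122), and without Nkx2-5 KO replicate 1 it was also called (adjusted p = 0.04). Between double KO and Tbx5 KO Pf4 differed by -0.36 (95% interval -2.27 to 1.54), and between Nkx2-5 KO and WT by -0.84 (95% interval -2.75 to 1.06), which became 0.58 without Nkx2-5 KO replicate 2 (adjusted p = 0.538). The difference between double KO and Nkx2-5 KO was -2.70 (SE 0.88, adjusted p = 0.0962), and -4.13 without Nkx2-5 KO replicate 2 (adjusted p = 0.000476). The difference between Tbx5 KO and Nkx2-5 KO was -2.34 (adjusted p = 0.252), and -3.77 without that array (adjusted p = 0.000688).

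**Figure D2:**
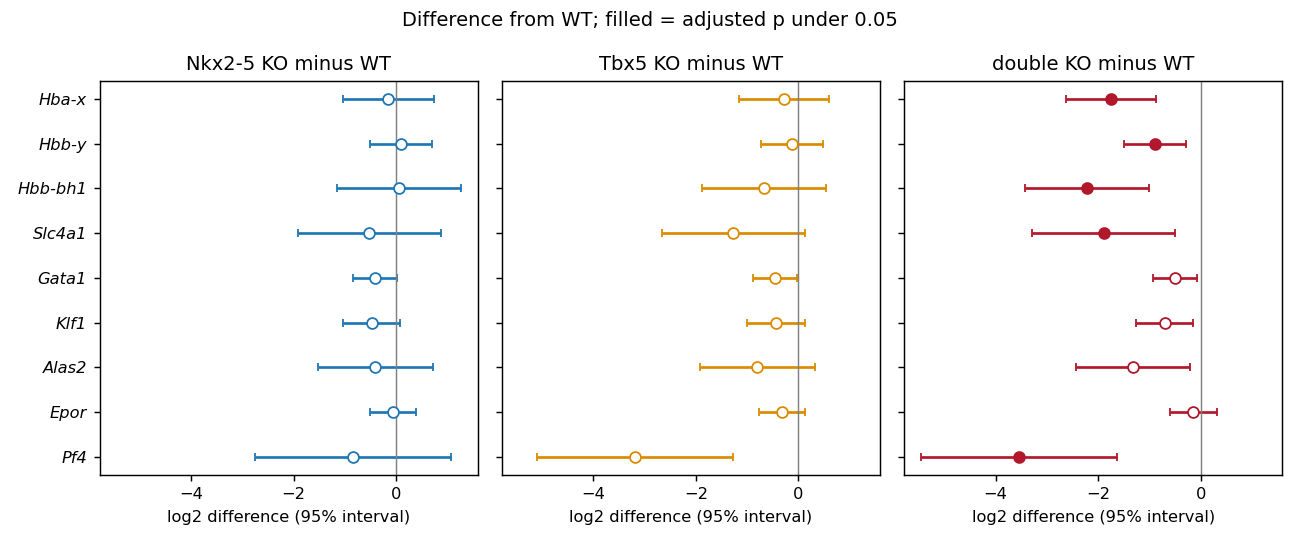
Log2 difference from WT of each gene in the 3 knockouts, with 95% intervals from the limma fit to all 12 arrays; filled points are called at adjusted p under 0.05 over all genes. The called points are all in the double KO: Hba-x, Hbb-y, Hbb-bh1, Slc4a1 and Pf4.

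Counted over the 9 genes, 5 fell and 0 rose in the double KO against WT. Of all genes 23.4% were called in that comparison, 14.4% as lower and 9.05% as higher, so calls were common there. All 9 estimates were below 0, with a median of -1.32 against 0.06 over all genes, and 4 of the 9 were lower without overlap, as were 18.7% of all genes. In Nkx2-5 KO against WT limma called 0 members (4.43% of all genes, 2.59% as lower), and 0 had an unadjusted p under 0.05. In Tbx5 KO against WT it called 0 (2.31% of all genes, 1.31% as lower), with 2 at an unadjusted p under 0.05, Gata1 and Pf4, and 1 member, Pf4, was lower without overlap (11.4% of all genes). The comparisons with WT share the same 3 WT arrays, so they are not independent of each other. Without WT replicate 2 the counts were 2, 4 and 8 in Nkx2-5 KO, Tbx5 KO and double KO, beside 2.19%, 1.18% and 12.5% of all genes called lower, and without WT replicate 1, WT replicate 3 or double KO replicate 2 the double KO count was 2, beside 12.2%, 12.3% and 11.0% of all genes called lower.

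Among the knockouts, 2 of the 9 were called lower in the double KO than in Nkx2-5 KO (4.55% of all genes were lower, 5.56% called) and 1 of 9 lower than in Tbx5 KO (7.86% lower, 10.7% called). Without overlap, 4 were lower in the first of these (13.7% of all genes) and 5 in the second (14.5%). Limma called 0 between Tbx5 KO and Nkx2-5 KO (2.39% of all genes, 1.37% as lower), with 1 unadjusted p under 0.05, that of Pf4. The non-additive term asks whether the double KO differs by more than the sum of both single knockouts, and it called 0 of 9 (0.547% of all genes, 0.456% as lower), with 2 at an unadjusted p under 0.05. These were Hba-x at -1.31 (SE 0.57, adjusted p = 0.529) and Hbb-y at -0.86 (SE 0.39, adjusted p = 0.556). A greater fall of the globins than the single knockouts add up to was therefore not shown.

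Within a genotype the blood genes varied far more than most genes. The residual standard deviation was 1.34 for Pf4, 0.98 for Slc4a1, 0.85 for Hbb-bh1, 0.78 for Alas2 and 0.61 for Hba-x, against a median of 0.15 over all genes. Even the steadiest, Gata1 at 0.28, lay at the 90.6th percentile. The spread was uneven between genotypes: Slc4a1 spanned 9.02 to 12.12 in WT and 9.46 to 9.65 in Tbx5 KO. Within Tbx5 KO alone the SD ran from 0.03 to 0.12 over the 8 red cell members, and was 0.40 for Pf4. The SE of a difference from WT was 0.88 for Pf4 and 0.08 for Tnnt2, each over 3 arrays a group. Tnnt2 read 13.98 to 14.30, near the highest value of 14.7, and whether this narrowed its spread was not tested.

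The red cell members varied together from array to array. Of 28 pairs among the 8 genes, Pearson's r over the 12 arrays ran from 0.26 to 0.98, and 20 pairs had an adjusted permutation p under 0.05 (36 pairs with Pf4 included, 100000 permutations, two-sided, Benjamini-Hochberg). The permutations moved arrays freely between genotypes, so differences between genotypes enter every permutation p given here. Over deviations from the group means, r ran from 0.19 for Hbb-y with Gata1 to 0.99 for Hba-x with Hbb-bh1. Slc4a1 and Alas2 were tied closest to each other outside the globins, with r = 0.98 and rho = 0.95 (permutation p = 1e-05 for both, the smallest these permutations can give, adjusted 9e-05 and 0.00012). Their r was 0.96 without the 2 WT arrays farthest from the median, and the deviations from the group means correlated at 0.98. Hba-x and Hbb-bh1 gave r = 0.98 and rho = 0.97 (permutation p = 1e-05 and 3e-05, adjusted 9e-05 and 0.00024), 0.94 without double KO replicates 1 and 2, and 0.99 over deviations from the group means.

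Hba-x and Slc4a1 ranked the arrays alike but not on a straight line. They gave r = 0.78 and rho = 0.96 (permutation p = 0.00321 and 1e-05, adjusted 0.00806 and 0.00012), with r = 0.94 without double KO replicates 1 and 2. In the double KO Hba-x still ranged from 10.75 to 12.45 while Slc4a1 stayed within 8.84 to 8.96. Slc4a1 also read 9.02 on WT replicate 2 and 9.0 on Nkx2-5 KO replicate 2. Whether these low Slc4a1 values stood above background was not tested. Gata1 and Klf1 correlated at r = 0.84 and rho = 0.64 (permutation p = 0.00604 and 0.0308, adjusted 0.0121 and 0.044). That relation rested on WT replicates 1 and 3, since r was 0.35 without them. The relation of Slc4a1 to Klf1 rested on the same arrays, with r = 0.77 and rho = 0.63 (permutation p = 0.00474 and 0.0327, adjusted 0.01 and 0.044) and 0.39 without them.

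Pf4 followed the red cell genes in part. With Slc4a1 it gave r = 0.84 and rho = 0.80 (permutation p = 0.00192 and 0.00259, adjusted 0.00702 and 0.00717), and r = 0.80 without WT replicates 1 and 3. Nkx2-5 KO replicate 1, the highest array for Pf4 at 11.44, was not the highest for any globin over all 12 arrays.

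**Figure D3:**
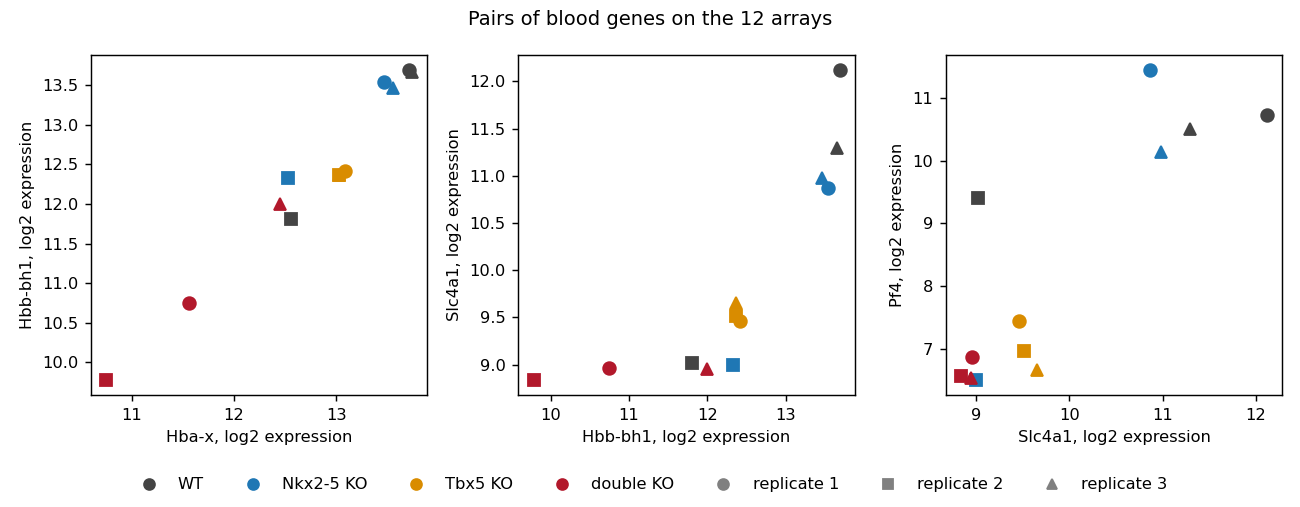
Log2 levels of Hbb-bh1 against Hba-x, Slc4a1 against Hbb-bh1 and Pf4 against Slc4a1 on the 12 arrays, with 1 colour per genotype and 1 symbol per replicate number. WT replicate 2 and Nkx2-5 KO replicate 2 lie apart from the other arrays of their genotypes, towards the Tbx5 KO and double KO arrays.

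The genes most like each pattern were sought among the measured genes, by Pearson's r over the 12 arrays and as a description. The 9 genes themselves were left out of this search, so Alas2, at r = 0.98 with Slc4a1, is not listed. Symbols of the Gm, Rik, Mir, Snor, Olfr or Vmn kind were left out too. For the mean of the 3 globins the closest were Lpcat1 (r = 0.92), Srprb (0.91), Nup62 (0.90), B3gat3 (0.89), and Eif4g2, Pgm2, Prpf4b, Clic4, Dhx9 and Mindy3 (0.88 each), none of which is on the red cell lists below. For Slc4a1, a pattern chosen after its values were seen, they were Kel (0.99), Hemgn (0.98), Car2, Slc25a37 and Acp5 (0.95 each), Ank1 and Trim10 (0.94 each), and Cldn13, Fech and Blvrb (0.93 each). Kel, a red cell surface peptidase and blood group antigen, read 10.26, 7.38 and 9.39 in WT and 7.59, 7.40 and 7.50 in the double KO. For Pf4, also chosen after its values were seen, they were Plek (0.94), Ppbp (0.93), Pkhd1l1 and Slc24a4 (0.90 each), Rgs18 (0.89), Hebp1, Canx and Ssr3 (0.88 each), and Klhdc10 and Cfl2 (0.87 each). Ppbp encodes another platelet chemokine and neighbours Pf4 in the genome, and Plek encodes pleckstrin, the main protein kinase C substrate of platelets.

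Other genes of red cells were set beside the members, from written lists. In the double KO against WT 14.4% of all genes were called lower and 9.05% higher, which holds for every list below. In Nkx2-5 KO 4.43% were called, 2.59% as lower, and in Tbx5 KO 2.31%, 1.31% as lower. Of 20 measured genes of the red cell membrane and skeleton, 4 fell and 0 rose in the double KO against WT, while all 20 estimates were below 0, with a median of -0.58 against 0.06 over all genes. The called genes were Gypc, a membrane sialoglycoprotein (-1.07, SE 0.23, adjusted p = 0.00459), Cd59a, a complement inhibitor (-1.48, adjusted p = 0.00166), Cd44, a hyaluronan receptor (-0.82, adjusted p = 0.000291), and Tmod1, which caps actin filaments in red cells and in heart muscle (-0.25, adjusted p = 0.0475). Cd59a and Cd44 are also made outside blood. Rhag, an ammonium channel of the red cell membrane, differed by -1.77 (SE 0.78, adjusted p = 0.12) and Car2, carbonic anhydrase, by -1.84 (SE 0.66, adjusted p = 0.0617). In Nkx2-5 KO 1 of 20 fell, Cd59a (-1.42, adjusted p = 0.014), with a list median of -0.35. In Tbx5 KO limma called 0, with a median of -0.51 and 18 of 20 below 0. There 6 were lower and 1 higher at an unadjusted p under 0.05, a threshold at which the share of all genes was not counted. WT replicate 2 bore on these counts: without it, chosen after the values were seen, 15 of 20 fell in the double KO, 2 in Nkx2-5 KO and 6 in Tbx5 KO, with medians of -0.89, -0.67 and -0.81. Of all genes 12.5%, 2.19% and 1.18% were called lower without that array, in the same order. Neither this list nor those below were recounted without WT replicate 1, WT replicate 3 or double KO replicate 2. Leaving out any 1 of those arrays lowered the double KO count of the 9 members from 5 to 2.

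Of 21 genes of heme synthesis and iron supply, 8 fell and 1 rose in the double KO. Alad, the second enzyme of heme synthesis, read 12.44, 10.86 and 11.73 in WT, 10.74, 10.46 and 10.97 in Nkx2-5 KO, 10.64, 10.29 and 10.46 in Tbx5 KO, with 9.56, 9.30 and 9.90 in the double KO. Its double KO arrays lay below all others, and it fell by 2.09 (SE 0.30, 4.26-fold, adjusted p = 0.000394). Hebp1, a heme-binding protein, fell by 1.31 (adjusted p = 0.000285), Glrx5, which serves iron-sulphur cluster assembly, by 1.23 (adjusted p = 0.000421) and Blvrb, a biliverdin reductase, by 0.92 (adjusted p = 0.0206). The others that fell were Urod, Fth1, Slc11a2 and Abcb6. Tfrc, the transferrin receptor, rose by 0.68 (SE 0.17, adjusted p = 0.0138), the opposite way to the 8 that fell. Many of these genes are active in all cells, heart muscle included. In single knockouts 1 of 21 fell in each: Glrx5 in Nkx2-5 KO (-0.69, adjusted p = 0.0493) and Hebp1 in Tbx5 KO (-0.84, adjusted p = 0.0299). Without WT replicate 2, 11 fell in the double KO, 6 in Nkx2-5 KO and 7 in Tbx5 KO, and without Nkx2-5 KO replicate 2, 0 fell in Nkx2-5 KO.

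The other globin genes gave little to compare, since 3 of the 11 written names were measured by a probe set with 1 symbol, and limma called 0 of 3 in each of the 7 comparisons, with 0 at an unadjusted p under 0.05. Hbq1b, a theta globin, read 10.04, 8.73 and 9.29 in WT and 8.89, 8.93 and 8.70 in the double KO, with a difference of -0.51 (SE 0.30, adjusted p = 0.232). Levels of the adult alpha and beta chains were not analysed here. Of 20 blood transcription factors, 2 rose and 2 fell in the double KO, with a median of -0.02, and 1 rose and 3 fell without WT replicate 2. Zfpm1, the Gata1 cofactor Fog1, rose by 0.47 (adjusted p = 0.0364) and Sox6, an activator of red cell maturation, by 0.60 (adjusted p = 0.00588), while Fli1, a factor of megakaryocytes and endothelium, fell by 0.64 (adjusted p = 0.0225) and E2f4 fell by 0.36 (adjusted p = 0.0366). Tal1, the master regulator of blood formation, differed by -0.06 (95% interval -0.31 to 0.19). Sox6 is also made in muscle.

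Of 13 genes of erythropoietin and stem cell factor signalling, 3 rose and 2 fell in the double KO. Epo, the ligand of Epor, rose by 0.37 (SE 0.12, adjusted p = 0.0399), Trib3 by 0.65 (adjusted p = 0.0198) and Kit, the receptor of stem cell factor, by 1.12 (SE 0.23, adjusted p = 0.00349). Jak2, the kinase bound to Epor, fell by 0.42 (adjusted p = 0.0212) and Kitl, the stem cell factor itself, by 0.48 (adjusted p = 0.0238), though 0 of the 13 fell without WT replicate 2. Kit read 8.14, 9.31 and 8.46 in WT, between 9.99 and 10.07 on the Nkx2-5 KO arrays, 9.42, 9.47 and 9.87 in Tbx5 KO, with 9.68, 9.90 and 9.70 in the double KO. It was higher than WT on every knockout array and rose by 1.38 in Nkx2-5 KO (SE 0.23, adjusted p = 0.00747), and its highest WT array was WT replicate 2, the one lowest for red cell genes.

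Of 21 platelet and megakaryocyte genes other than Pf4, limma called 0 lower in the double KO, with 1 lower at an unadjusted p under 0.05, and 1 rose, Pdgfb (0.37, adjusted p = 0.0391), with a list median of -0.12. Without Nkx2-5 KO replicate 2, 2 of 21 fell, beside 14.4% of all genes called lower. Ppbp differed by -0.64 (SE 0.30, adjusted p = 0.151), Plek by -0.97 (SE 0.44, adjusted p = 0.131) and Itga2b, the platelet integrin alpha IIb and an early megakaryocyte marker, by -0.07 (95% interval -0.41 to 0.26). Plek read 9.01, 8.50 and 9.15 in WT, 10.26, 7.74 and 9.28 in Nkx2-5 KO, 8.09, 7.90 and 7.81 in Tbx5 KO, with 7.83, 8.03 and 7.89 in the double KO, so that all WT arrays lay above all Tbx5 KO and double KO arrays, as for Pf4. In Tbx5 KO 1 of 21 fell, Thbs1 (-0.84, adjusted p = 0.0116), a platelet granule protein also made by many other cells. At an unadjusted p under 0.05 in limma, 8 of the list were lower and 1 higher in Tbx5 KO. The share of all genes at that unadjusted threshold was not counted, so these numbers have no background beside them. There 16 of 21 estimates were below 0, with a list median of -0.12.

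**Figure D4:**
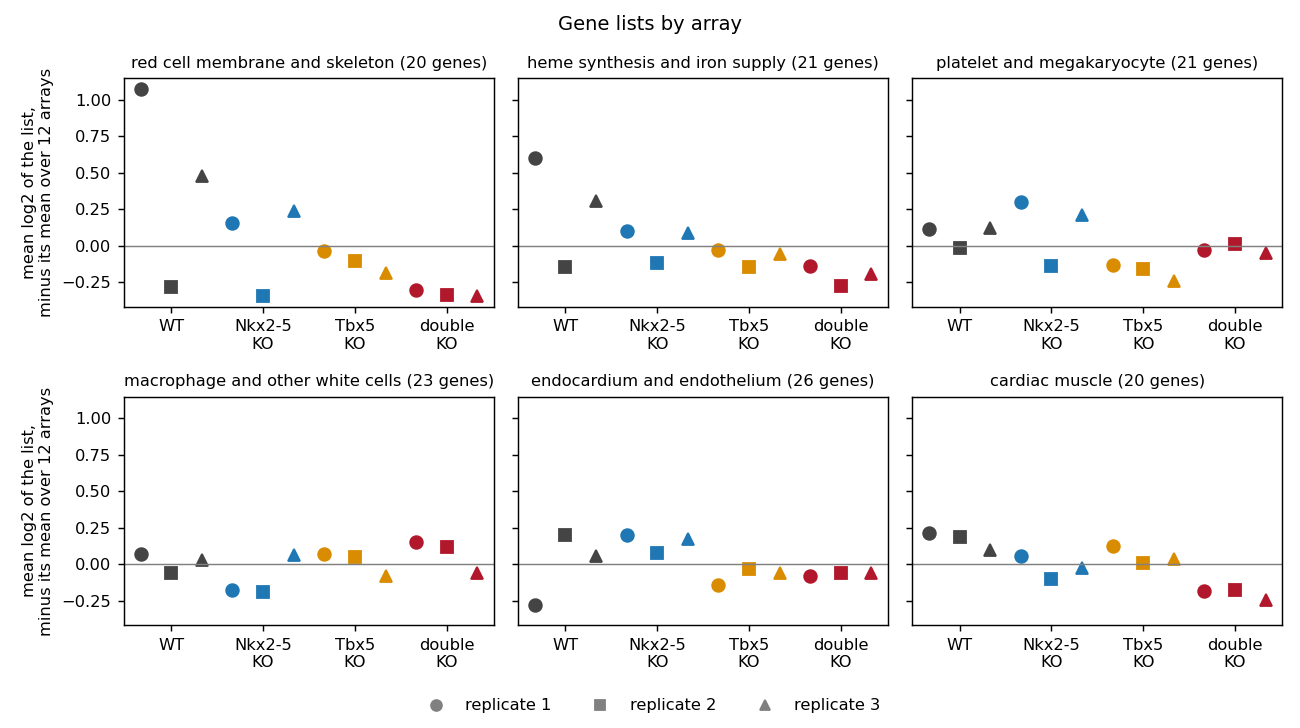
Mean log2 level of 6 gene lists on every array, minus the mean of that list over the 12 arrays, with 1 panel per list, 1 colour per genotype and 1 symbol per replicate number. Before centring, the red cell membrane list spans 8.27 to 9.63 in WT and 8.21 to 8.25 in the double KO.

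Markers of other cells that a dissected heart could hold were counted in the same way. In the double KO 14.4% of all genes were called lower and 9.05% higher. Of 23 genes of macrophages and other white cells, 3 fell and 1 rose in the double KO: Lyz2 (-0.93, adjusted p = 0.00463), Lyz1 (-0.74, adjusted p = 0.0112) and Cd53 (-0.49, adjusted p = 0.0232) were lower and Cd68, a lysosomal protein, was higher (0.72, adjusted p = 0.00248). The same 3 fell in Nkx2-5 KO, and Lyz2 fell in Tbx5 KO (-1.07, adjusted p = 0.0156). Of all genes 2.59% were called lower in Nkx2-5 KO and 1.31% in Tbx5 KO. Lyz2 did not overlap with WT in any knockout: it read 7.88, 7.48 and 7.80 in WT, against a highest value of 6.98 in Nkx2-5 KO, of 6.80 in Tbx5 KO and of 7.17 in the double KO. Lyz1 and Lyz2 are close copies that their probe sets may not separate. Ptprc (Cd45) differed by 0.07 (95% interval -0.20 to 0.34) and Csf1r by 0.19 (95% interval -0.12 to 0.50) in the double KO, and the list's mean level was 7.34 to 7.47 in WT and 7.34 to 7.55 in the double KO. Without WT replicate 2, 2 of the list fell in the double KO.

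Of 26 genes of endocardium and endothelium, the lining through which blood flows, 6 fell and 2 rose in the double KO, and 4 fell and 2 rose without WT replicate 2. Npr3, an endocardial receptor (-1.24, adjusted p = 0.000516), Tek (-1.19, adjusted p = 0.00236), Ramp2 (-0.77, adjusted p = 0.00493) and Cd34 (-0.69, adjusted p = 0.0109) were among those that fell, while Flt1 rose by 1.09 (adjusted p = 0.00333) and Sox17 by 0.52 (adjusted p = 0.0032). Cdh5, the junction protein of all endothelium, differed by 0.13 (95% interval -0.19 to 0.45) and Pecam1 by 0.15 (95% interval -0.24 to 0.54). The list's mean level was 8.95 to 9.43 in WT and 9.15 to 9.17 in the double KO. The WT arrays ran opposite to the red cell membrane list here: WT replicate 1 was highest for that list (9.63) and lowest for endothelium (8.95), and WT replicate 2 was lowest for it (8.27) and highest for endothelium (9.43).

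Of 19 genes of yolk sac and visceral endoderm, where primitive blood forms, limma called 0 lower in the double KO, with 0 lower at an unadjusted p under 0.05, and 2 rose, Apoa1 (0.57, adjusted p = 0.0128) and Apoa4 (0.37, adjusted p = 0.00735), with list means of 7.76 to 8.08 in WT and 8.02 to 8.07 in the double KO. With WT replicate 2 left out, 1 of the 19 rose. Of 19 genes of trophoblast and decidua, 7 rose in Tbx5 KO against WT, among them Prl3d3 by 4.32 (adjusted p = 4.71e-05) and Erv3 by 3.54 (11.6-fold, adjusted p = 1.49e-06). Of all genes 2.31% were called in Tbx5 KO against WT in either direction, 1.31% as lower. The list mean was 7.33 to 7.36 on the 3 Tbx5 KO arrays and 6.34 to 6.52 on the other 9. The part of such tissue in the Tbx5 KO values was not tested. Of 20 heart muscle genes, 7 fell and 4 rose in the double KO, with list means of 12.84 to 12.96 in WT and 12.50 to 12.57 in the double KO, and the part of these differences in the blood gene values was not tested.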

How the data were processed

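Hearts of 4 genotypes, 3 arrays each, were measured on Affymetrix mouse gene arrays, with RNA isolated, amplified and biotin-labelled with commercial kits per the labels' protocols. The deposited values are log2 expression levels for each probe set, computed by the authors. Their normalization software was not given in the sources used here, and no detection calls were used. They ran from 3.21 to 14.7, with array medians from 8.05 to 8.25, and correlated at 0.969 to 0.984 within genotypes and 0.958 to 0.981 between them. No further normalization was applied.

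Of 35557 probe sets, 21789 carried 1 gene symbol in the platform annotation, 1621 several and 12147 had none listed. For 999 genes with several probe sets the one with the highest mean was kept, which left 19938 genes, all tested. Group means of the 4 genotypes were modelled over the 12 arrays together in limma 3.58.1 (functions lmFit plus eBayes, two-sided, R 4.3.3; 8 residual and 4.51 prior degrees of freedom) in 7 comparisons. A gene was called at a Benjamini-Hochberg adjusted p under 0.05 over all genes within a comparison. Counts at an unadjusted p under 0.05 are given without the share of all genes at that threshold. The script was tested on simulated data. SE is the standard error of the model's difference, over 3 arrays a group. A p sets that difference against the spread between arrays, pooled over the 4 genotypes and moderated by limma. The labels do not count the hearts in an array.

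The 9 genes and the gene lists were chosen with earlier results of these data known. Named besides the 9 were, of each list, up to 4 called genes with the largest change; the 10 genes most like the mean of the standardized globin values; Xist and Y-linked genes; Tnnt2, Actc1 and Myl7; and Nkx2-5 and Tbx5. Other names, such as Rhag, Car2, Hbq1b, Tal1, Itga2b, Ppbp, Plek, Ptprc, Csf1r, Cdh5 and Pecam1 and the genes most like Slc4a1 and Pf4, were chosen after their values were seen. Promoter letters came from a RefSeq table on GRCm38.p6. Correlations and plots used scipy 1.17.1, pandas 2.3.3, numpy 2.4.6 and matplotlib 3.10.9 in Python 3.11.15. Alternatives were quantile normalization once more, centring on array medians, array weights, a replicate block, an intensity trend, the mean of a gene's probe sets, leaving out dim genes, using only the arrays compared, and leaving out each array. The gene lists were recounted without WT replicate 2 or Nkx2-5 KO replicate 2, which was chosen after the data were seen.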

Additional observations from a re-analysis of the deposited data

How the results depend on the processing

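Over 20 alternatives, 1244 values of the 63 tests of the 9 genes were recomputed: 1163 stayed on their side of the threshold, 42 calls ended, 39 were gained and 0 reversed. In the double KO against WT the calls of Hba-x (adjusted p 0.000953 to 0.0363) and Pf4 (8.18e-05 to 0.0432) held under all 20, while those of Hbb-y ended under 5, of Hbb-bh1 under 3 and of Slc4a1 under 12. Against Nkx2-5 KO those of Hba-x ended under 9 and of Hbb-bh1 under 7, and against Tbx5 KO that of Hba-x under 6. The number called in the double KO against WT went from 5 to 8 with array weights, to 3 with only the arrays compared, and to 2 to 8 without 1 array. Against Nkx2-5 KO it went from 2 to 0 with quantile normalization, to 4 with array weights, to 0 with only the arrays compared and to 0 to 4 without 1 array. Against Tbx5 KO it went from 1 to 0 with quantile normalization, to 3 with array weights, to 2 with only the arrays compared and to 0 to 3 without 1 array. In Tbx5 KO against WT it went from 0 to 1 with array weights, to 1 with only the arrays compared and to 0 to 4 without 1 array, in Nkx2-5 KO against WT to 0 to 2 without 1 array, and between Tbx5 KO and Nkx2-5 KO to 1 with array weights and to 0 to 1 without 1 array. The non-additive term stayed at 0. Without 1 array the share of all genes called moved too, from 16.3% to 23.8% in the double KO against WT. It was 2.61% to 6.29% against Nkx2-5 KO and 6.52% to 11.1% against Tbx5 KO. For Tbx5 KO against WT it was 1.06% to 2.76%, and for Nkx2-5 KO against WT 0.848% to 5.47%. Between the single knockouts it was 1.27% to 2.64%, and for the non-additive term 0.241% to 1.32%. The shares under the other alternatives are not given here. Array weights ran from 0.545 for double KO replicate 3 to 2.639 for Nkx2-5 KO replicate 1, with 0.71 for WT replicate 2, and the cause of these moves was not tested. Gata1 and Klf1 were called in the double KO with quantile normalization (adjusted p = 0.046 and 0.028) and with centring (0.0319 and 0.0346). Replicate numbers did not pair the arrays: 3 of 18 same-numbered pairs correlated above 0.1 in their deviations (-0.27 to 0.21), and 2 of 12 arrays correlated best with their own number. Over the 8 red cell members alone, the array mean was lowest on replicate 2 in each genotype (9.88, 10.03, 10.26 and 9.30). With the replicate block the count against Tbx5 KO was 3, and Alas2 was called in the double KO against WT (-1.32, adjusted p = 0.032), as was Hbb-y against Nkx2-5 KO (-0.99, adjusted p = 0.0192). Leaving out dim genes kept 11827 genes and left Klf1 untested.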
